A study of Mus musculus with 14 samples.

Results

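The 10 genes described here encode the lipases of stored fat, their cofactors and the proteins that coat lipid droplets: Pnpla2, Abhd5, G0s2, Lipe, Mgll, Plin1, Plin2, Plin4, Plin5 and Cidec. They were chosen by name, and 10 of 10 were present among the 35275 genes of the table and among the 13079 genes kept for testing. RNA was sequenced from homogenized brown adipose tissue of C57BL/6 mice aged 8 weeks. All animals carried the floxed Lrpprc alleles (LrpprcFF), and LrpprcBKO animals also carried Ucp1-Cre, which is driven by the promoter of the thermogenic gene Ucp1 and so acts in cells that express it. There were 4 control and 4 LrpprcBKO animals housed at 22 °C, and 3 control and 3 LrpprcBKO animals housed at thermoneutrality, 30 °C. The controls lacked Cre, so an effect of the transgene and of the Lrpprc deletion cannot be told apart.

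Brown adipocytes hold triglyceride in many small droplets and burn its fatty acids in mitochondria to make heat. Pnpla2 (adipose triglyceride lipase) removes the first fatty acid, Lipe (hormone-sensitive lipase) acts on diglyceride and Mgll (monoglyceride lipase) completes the release. Abhd5 activates Pnpla2 and G0s2 inhibits it, perilipins on the droplet surface regulate access of the lipases, and Cidec promotes the transfer of lipid from smaller to larger droplets. Lrpprc itself is a mitochondrial RNA-binding protein needed for the stability of mitochondrial messenger RNA.

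Values are FPKM (fragments per unit of transcript length and of library depth), rescaled between libraries on nuclear genes expressed in every library. Each library's depth, worked out from how finely low FPKM values were spaced, was between 15900000 and 21300000 fragments. The lowest value of any of the 10 genes was 11.7 scaled FPKM, for Abhd5. Lrpprc lay at 25.3 to 57.3 scaled FPKM in controls and 4.97 to 11.2 in knockouts, with no overlap. Xist, expressed from the inactive X chromosome, reached at least 9.7 scaled FPKM in all 6 animals at 30 °C and at most 0.0139 at 22 °C, while the Y-linked gene Ddx3y showed the opposite split, so housing temperature and sex cannot be told apart. Brown adipocyte markers were present: their sum spanned 14730 to 20210 scaled FPKM in controls and 11340 to 14970 in knockouts at 22 °C, against 10150 to 12890 and 5309 to 7169 at 30 °C. Most of that sum was Fabp4, with means of 12258 in controls and 8411 in knockouts at 22 °C. Of the 10 markers, 5 were higher and 5 lower in knockouts at 22 °C, with 1 passing limma's test in each direction. Ucp1 averaged 2114 in controls and 2067 in knockouts there. Summed macrophage markers spanned 69.8 to 106 in controls and 116 to 252 in knockouts at 22 °C, and 150 to 490 against 737 to 2095 at 30 °C. Summed skeletal muscle markers varied within every group and reached 15760 in control replicate 1 at 30 °C. Control replicates 3 and 4 at 22 °C have identifiers that begin with R and all other animals with E, a letter the labels do not explain. In whole tissue, fewer cells of a type and less RNA per cell cannot be told apart.

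Among the 10 genes Pnpla2 had the highest mean level per transcript length in every group and Abhd5 the lowest. In controls at 22 °C Pnpla2 stood above Cidec, Plin1 and G0s2, whose ranges overlapped, and these stood above Plin2, Lipe and Mgll, which also overlapped. Plin4 and Plin5 followed with overlapping ranges, above Abhd5. The order of the coat genes differed in knockouts: Cidec was the number 2 gene by mean in controls and number 4 in knockouts at 22 °C, and number 3 and number 6 at 30 °C. Plin2 moved the other way, from number 5 to number 2 at 22 °C and from number 6 to number 3 at 30 °C.

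**Figure D1:**
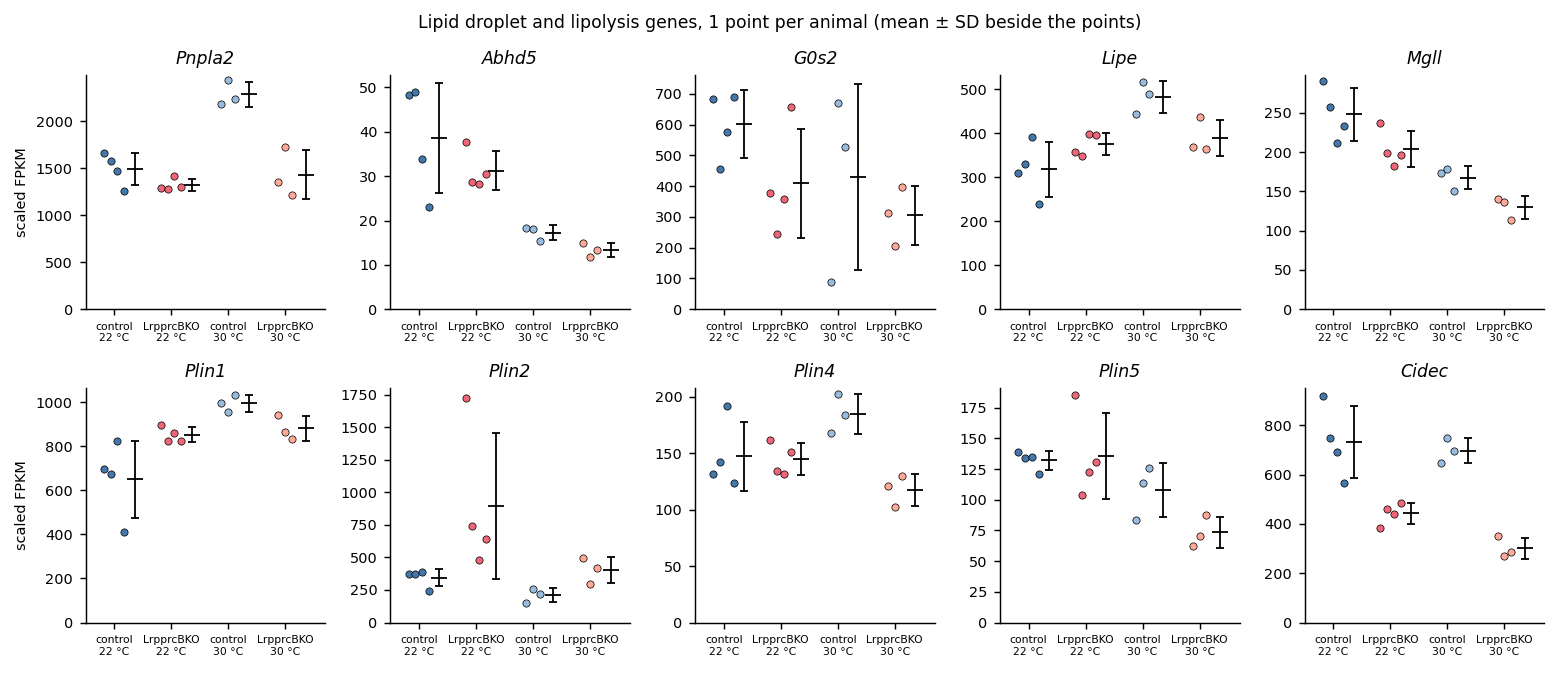
Scaled FPKM of the 10 genes on a linear axis, 1 point per animal, by genotype and housing temperature. Cidec points of the knockouts lie below all controls at each temperature, and Plin2 points lie above them.

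Cidec, which enlarges droplets, was lower in knockouts at both temperatures. At 22 °C it measured 919, 749, 690 and 568 scaled FPKM in the 4 controls and 385, 459, 442 and 484 in the 4 knockouts. At 30 °C it measured 646, 747 and 695 in the 3 controls and 349, 268 and 287 in the 3 knockouts. No knockout reached the lowest control of its temperature. The log2 difference at 22 °C was -0.71 (SE 0.14, limma adjusted p = 0.0257), and at 30 °C it was -1.21 (SE 0.17, limma adjusted p = 0.000896). The call at 30 °C held in every alternative that was run. The call at 22 °C was lost without control replicate 1 (limma adjusted p = 0.0665), control replicate 2 (0.0668), knockout replicate 1 (0.0885) or knockout replicate 2 (0.0741). It was also lost under quantile normalization (limma adjusted p = 0.149), without a filter on low values (0.0632) and with the compared groups fitted alone (0.0928).

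Plin2, the coat protein found on droplets of most cell types, had values in the opposite direction that did not pass the test. At 22 °C it measured 369, 375, 385 and 245 scaled FPKM in controls and 1723, 738, 478 and 643 in knockouts. At 30 °C it measured 153, 259 and 218 in controls and 498, 298 and 415 in knockouts. Every knockout was above every control at its temperature, and replicate 1 of the knockouts at 22 °C stood far above the other 3. The log2 difference was 1.23 at 22 °C (95% interval 0.52 to 1.93, limma adjusted p = 0.0788) and 0.94 at 30 °C (0.12 to 1.76, limma adjusted p = 0.121). The call depended on the scaling. At 22 °C it passed in the 3 other scalings: FPKM as deposited (1.53, limma adjusted p = 0.00822), quantile normalization (1.39, 0.0489) and equal totals (1.37, 0.0361). At 30 °C it passed with FPKM as deposited (1.24, limma adjusted p = 0.023) and quantile normalization (1.22, 0.043) and not with equal totals (0.0506). With array weights it passed at both temperatures (limma adjusted p = 0.0427 and 0.0282). Without knockout replicate 1 the difference at 22 °C was 0.85 (limma adjusted p = 0.143). Of the 8 fits at 22 °C that left out an animal, 1 passed, that without knockout replicate 3 (1.47, limma adjusted p = 0.038).

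The sequences before the starts of Cidec and Plin2 are shown because these coat genes had opposite directions, and that of Pnpla2 because it was the lipase that fell. They are the 250 bases before each annotated start, from RefSeq on GRCm38.p6, 5′ to 3′ on the gene's strand. All 10 genes had an entry, with 14 windows in total. Capitals mark matches on either strand to AGGNNA and AGGNCA spaced by any base (a relaxed peroxisome proliferator response element), AGGTCA (a nuclear receptor half-site), TTGCNNAA (C/EBP), CCAAT or GGGCGG (a GC box).
Cidec, window 1, chr6:113435761-113436010, minus strand: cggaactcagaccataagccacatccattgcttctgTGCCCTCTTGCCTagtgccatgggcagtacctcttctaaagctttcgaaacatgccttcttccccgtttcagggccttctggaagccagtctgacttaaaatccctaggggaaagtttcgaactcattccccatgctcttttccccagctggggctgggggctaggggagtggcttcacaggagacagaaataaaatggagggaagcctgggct
Cidec, window 2, chr6:113434765-113435014, minus strand: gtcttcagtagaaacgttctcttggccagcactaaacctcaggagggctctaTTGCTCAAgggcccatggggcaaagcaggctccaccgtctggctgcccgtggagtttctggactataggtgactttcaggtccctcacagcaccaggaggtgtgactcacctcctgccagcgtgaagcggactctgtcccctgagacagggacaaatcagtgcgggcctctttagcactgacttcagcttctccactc
Plin2, chr4:86670060-86670309, minus strand: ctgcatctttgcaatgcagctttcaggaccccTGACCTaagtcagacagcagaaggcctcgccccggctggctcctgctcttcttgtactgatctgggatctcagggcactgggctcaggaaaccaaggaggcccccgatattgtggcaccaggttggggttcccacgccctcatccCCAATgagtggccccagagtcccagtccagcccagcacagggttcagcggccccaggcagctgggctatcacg
Pnpla2, chr7:141454938-141455187, plus strand: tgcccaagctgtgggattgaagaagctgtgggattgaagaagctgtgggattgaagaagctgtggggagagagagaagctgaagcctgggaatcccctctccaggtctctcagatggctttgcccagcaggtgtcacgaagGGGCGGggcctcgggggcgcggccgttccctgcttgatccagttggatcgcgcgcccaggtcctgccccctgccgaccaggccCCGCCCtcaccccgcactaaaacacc

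The relaxed element, added after the stricter pair of AGGNCA repeats (in 0.338% of all windows) gave no match in the 14 windows, matched Cidec window 1 at bases 214 to 202 before the start, on the opposite strand, and 0.776% of all 32851 windows hold it. Cidec window 2 held TTGCTCAA at bases 198 to 191, a C/EBP match found in 9.56% of all windows. C/EBP matches lay in 2 of the 14 windows, the other in Plin1. Plin2 held TGACCT at bases 218 to 213, the AGGTCA half-site on the opposite strand, as do 14% of all windows. Half-sites lay in 3 of the 14 windows, also in Abhd5 and Plin5. The GC box, in 32.7% of all windows, lay in 7 of the 14, among them that of Pnpla2 and neither of Cidec. These are matches of letters in short windows, with no measurement of binding.

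Pnpla2, the lipase that starts triglyceride breakdown, was lower in knockouts at 30 °C. It measured 2181, 2432 and 2240 scaled FPKM in controls and 1348, 1724 and 1219 in knockouts at that temperature, with no overlap. At 22 °C it measured 1658, 1574, 1467 and 1259 in controls and 1289, 1280, 1415 and 1303 in knockouts, where the ranges overlapped. The log2 difference was -0.69 at 30 °C (SE 0.15, limma adjusted p = 0.00929) and -0.17 at 22 °C (SE 0.13, limma adjusted p = 0.573). The call at 30 °C depended on scaling: it was -0.39 with FPKM as deposited (limma adjusted p = 0.0502) and 0.03 under quantile normalization (limma adjusted p = 0.951). Neither of these scales sets mitochondrial transcripts apart. Such transcripts took up 21.76 to 28.48% of FPKM in controls and 2.04 to 5.34% in knockouts. The part of this in the Pnpla2 values was not tested. The Pnpla2 call was also lost with the compared groups fitted alone (limma adjusted p = 0.0629).

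Its partners did not pass the test, though Abhd5 at 22 °C passed without the controls with R identifiers (-0.64, limma adjusted p = 0.0362). Abhd5, the activator, measured 38.5 ± 12.4 scaled FPKM in controls and 31.2 ± 4.37 in knockouts at 22 °C (SD, n = 4), and 17.3 ± 1.63 and 13.4 ± 1.62 at 30 °C (SD, n = 3). G0s2, the inhibitor, varied widely between animals: controls at 30 °C measured 89.5, 669 and 527, and knockouts 314, 204 and 396. Control replicate 1, with the lowest G0s2 value of all 14 animals, was also the library with the highest muscle marker sum. The G0s2 difference at 30 °C was -0.11 (limma adjusted p = 0.929), and 0.093 with a muscle score as covariate (limma adjusted p = 0.943). The part of muscle in the value of this animal was not tested.

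The lipases of the later steps did not pass the test for genotype either. Lipe measured 444, 516 and 488 scaled FPKM in controls and 368, 437 and 363 in knockouts at 30 °C (log2 difference -0.31, limma adjusted p = 0.209). At 22 °C its difference was 0.25 (limma adjusted p = 0.393), and 0.56 with FPKM as deposited (limma adjusted p = 0.012). Mgll differed by -0.28 at 22 °C (limma adjusted p = 0.284) and by -0.37 at 30 °C (limma adjusted p = 0.0991). With array weights Lipe passed at 30 °C (limma adjusted p = 0.0211), and Mgll at 22 °C (0.0485) and 30 °C (0.0106), as did Abhd5 at 22 °C (0.0237). The Mgll and Lipe ranges of controls and knockouts overlapped at 22 °C and not at 30 °C.

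Plin4, a perilipin abundant in adipocytes, was lower in knockouts at 30 °C. Controls measured 168, 203 and 184 scaled FPKM and knockouts 121, 102 and 130, with no overlap (log2 difference -0.65, SE 0.16, limma adjusted p = 0.0165). The call was lost without control replicate 2 (-0.58, limma adjusted p = 0.0766) or knockout replicate 1 (-0.67, limma adjusted p = 0.0504), and with FPKM as deposited (-0.35, limma adjusted p = 0.099). At 22 °C Plin4 measured 148 ± 30.7 in controls and 145 ± 14.3 in knockouts (SD, n = 4), a difference of -0.01 (SE 0.14, limma adjusted p = 0.981). Plin5, the perilipin of oxidative tissues that tethers droplets to mitochondria, differed by 0.01 at 22 °C (limma adjusted p = 0.991) and by -0.54 at 30 °C (limma adjusted p = 0.0936). Plin1, the main coat protein of adipocyte droplets, measured 696, 673, 822 and 409 in controls and 896, 826, 862 and 826 in knockouts at 22 °C. Every Plin1 value of the knockouts was above the controls, and the difference of 0.44 did not pass (limma adjusted p = 0.217) except with FPKM as deposited (0.74, limma adjusted p = 0.00824); at 30 °C it was -0.18 (limma adjusted p = 0.605).

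**Figure D2:**
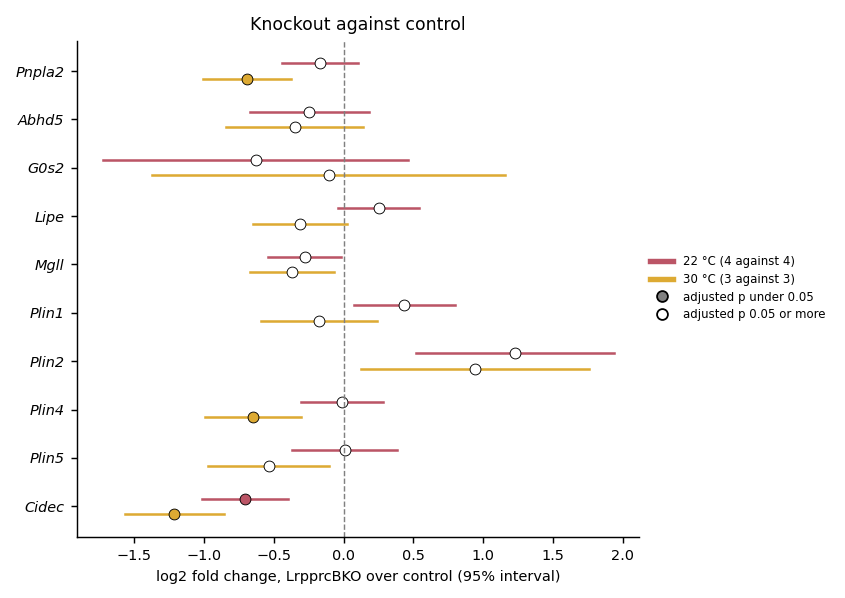
Log2 difference of knockout minus control for the 10 genes at 22 °C and 30 °C, with 95% intervals from limma. Of the genes that passed after adjustment, Cidec lies below 0 at both temperatures, and Pnpla2 and Plin4 lie below 0 at 30 °C. Under quantile normalization, which is not drawn, the Pnpla2 difference at 30 °C was 0.03. Intervals of Mgll and Plin2 at both temperatures, Plin1 at 22 °C and Plin5 at 30 °C also exclude 0.

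At 22 °C 1 of 10 genes (Cidec) passed, where 1.97% of all genes tested did (1.06% lower, 0.91% higher). Before adjustment 4 of 10 had a p under 0.05, as had 15.8% of all genes, and 3 of 10 (Cidec, Plin1 and Plin2) had ranges that did not overlap, where 9.38% of all genes did. At 30 °C 3 of 10 (Cidec, Pnpla2 and Plin4) passed, all lower, where 14.1% of all genes passed, 8.82% as higher and 5.28% as lower. Before adjustment 6 of 10 had a p under 0.05, as had 28.3% of all genes. The ranges did not overlap for 8 of 10 genes at 30 °C, where 36.8% of all genes did not. The median log2 difference of the 10 genes was -0.09 at 22 °C and -0.36 at 30 °C, beside 0.002 and 0.065 over all genes. At 30 °C 9 of 10 differences were negative, of which G0s2 and Plin1 were positive with FPKM as deposited and, with Pnpla2, under quantile normalization. With FPKM as deposited the median over all genes was 0.24 at 22 °C and 0.31 at 30 °C. That scale passed 3167 genes as higher and 81 as lower at 22 °C, against 119 and 139 as scaled here, and 4280 and 291 at 30 °C, against 1154 and 691. Equal totals over nuclear genes passed 386 as higher and 75 as lower at 22 °C, and 2225 and 409 at 30 °C.

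Beside these differences, 11 of 12 macrophage markers and 6 of 6 fibroblast markers passed as higher in knockouts at 30 °C. There 4 of 10 brown adipocyte markers (Adipoq, Fabp4, Cidea and Ucp1) passed as lower. Under quantile normalization 1 of 10 brown adipocyte markers passed as lower and 1 as higher. Fabp4 reversed to 1.49 (limma adjusted p = 0.00329), and the Ucp1 (0.163) and Cidea (0.267) calls were lost. The Cidea call was lost in the 3 other scalings. At 22 °C 0 of 12 macrophage markers passed limma's test, with 6 at an unadjusted p under 0.05. The part of the cell types of these markers in the Cidec, Pnpla2, Plin4 and Plin2 differences, and in the Plin2 per Cidec ratio given below, was not tested.

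**Figure D3:**
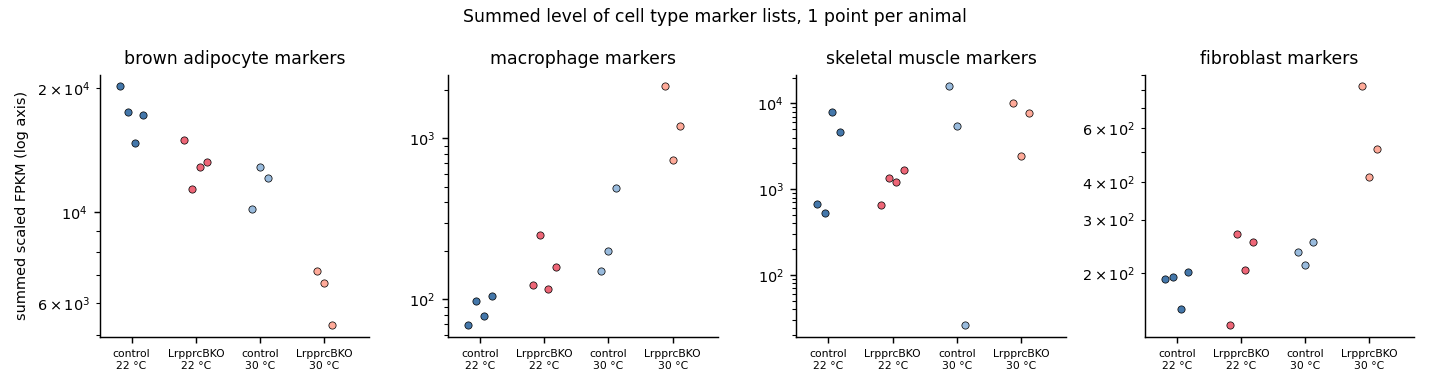
Summed scaled FPKM of marker lists by animal and group, on a log axis. Macrophage sums of knockouts at 30 °C span 737 to 2095 and lie above those of controls, which span 150 to 490.

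Ratios within a library do not depend on scalings that divide each library by a single factor. Quantile normalization is not such a scaling and can change these ratios. They were chosen after the values were seen and are given without a test. Plin2 per Cidec was 0.402, 0.5, 0.558 and 0.431 in controls and 4.47, 1.61, 1.08 and 1.33 in knockouts at 22 °C. At 30 °C it spanned 0.237 to 0.347 in controls and 1.11 to 1.45 in knockouts. In every knockout Plin2 exceeded Cidec, and in every control it was below Cidec. Cidec per Plin1 spanned 0.839 to 1.39 in controls and 0.43 to 0.586 in knockouts at 22 °C, and 0.649 to 0.783 against 0.31 to 0.37 at 30 °C. Pnpla2 per Lipe spanned 3.74 to 5.34 in controls and 3.3 to 3.67 in knockouts at 22 °C, and 4.59 to 4.91 against 3.36 to 3.95 at 30 °C. These ranges of controls and knockouts did not overlap at either temperature. Abhd5 per Pnpla2 overlapped between genotypes at both temperatures, at 0.0183 to 0.0311 and 0.0199 to 0.0292 at 22 °C and 0.00688 to 0.00837 and 0.00681 to 0.0111 at 30 °C.

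**Figure D4:**
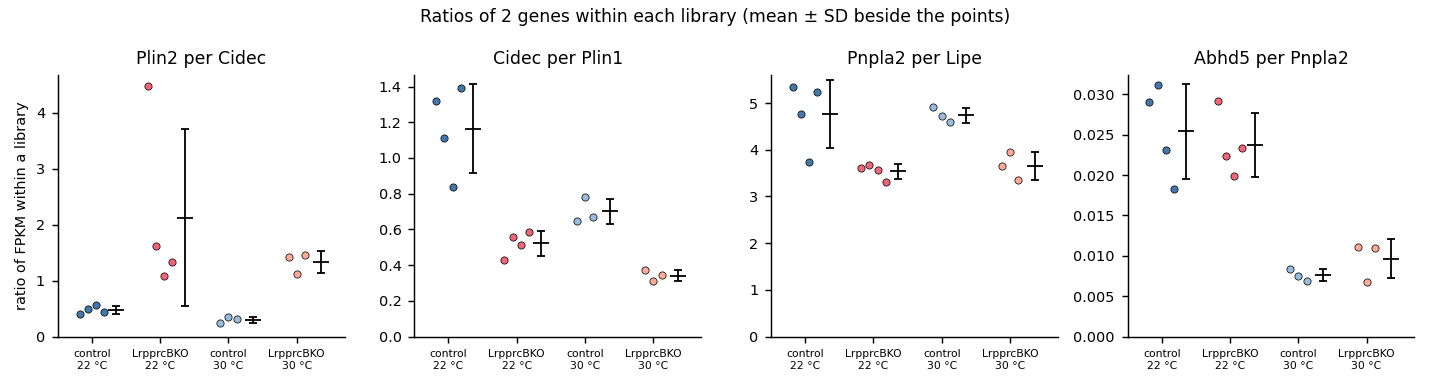
Ratios of scaled FPKM between pairs of the 10 genes in each library, by group. Plin2 per Cidec is above 1 in all knockouts and at most 0.558 in controls.

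The lipolytic genes differed between housing temperatures in both directions. Abhd5 was higher at 22 °C, with 48.3, 48.9, 33.8 and 23.1 scaled FPKM in controls at 22 °C and 18.3, 18.2 and 15.4 at 30 °C. In knockouts it measured 37.6, 28.6, 28.2 and 30.5 at 22 °C and 15, 11.7 and 13.4 at 30 °C. The groups did not overlap in either genotype, and the log2 difference was 1.06 in controls (limma adjusted p = 0.00272) and 1.16 in knockouts (limma adjusted p = 0.000801). Mgll was also higher at 22 °C, by 0.56 in controls (limma adjusted p = 0.00583) and 0.65 in knockouts (limma adjusted p = 0.00141). Pnpla2, Lipe and Plin1 were lower at 22 °C in controls, by -0.62 (limma adjusted p = 0.00417), -0.62 (limma adjusted p = 0.00589) and -0.66 (limma adjusted p = 0.0129). In knockouts the same 3 genes differed by -0.10, -0.05 and -0.05 between temperatures and did not pass (limma adjusted p = 0.56, 0.776 and 0.845), though Pnpla2 passed under quantile normalization (-0.55, limma adjusted p = 0.0272). The Plin1 call in controls was lost with the compared groups fitted alone (limma adjusted p = 0.0576).

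In knockouts Plin5, Cidec and Plin2 were higher at 22 °C. Plin5 measured 185, 104, 123 and 131 scaled FPKM at 22 °C and 62.7, 70.9 and 87.3 at 30 °C, without overlap (log2 difference 0.86, limma adjusted p = 0.00236). Cidec differed by 0.56 (limma adjusted p = 0.00885) in knockouts and by 0.05 in controls (limma adjusted p = 0.81). Plin2 differed by 1 log2 unit in knockouts with overlapping ranges (limma adjusted p = 0.0313), and without knockout replicate 1 at 22 °C the difference was 0.63 (limma adjusted p = 0.0592). The Plin2 call was also lost without knockout replicate 2 (limma adjusted p = 0.113) or replicate 3 (0.0661) at 30 °C, without a filter (0.0605), with the compared groups alone (0.0616) and with a muscle score as covariate (0.0688). In controls Plin2 was higher at 22 °C by 0.72 and did not pass (limma adjusted p = 0.125), though it did with the compared groups alone (0.0443) and with array weights (0.0242). Plin4 and G0s2 did not pass in either genotype, though Plin4 in controls passed without control replicate 3 at 22 °C (-0.47, limma adjusted p = 0.0113). Plin4 in controls also passed with FPKM as deposited (limma adjusted p = 0.0319), with array weights (0.0103) and without the controls with R identifiers (0.0213). In knockouts Plin4 passed under quantile normalization (0.37, limma adjusted p = 0.0367).

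In controls 5 of 10 genes passed, where 38.8% of all genes did, with 2 higher (18.2% of all genes) and 3 lower (20.6%) at 22 °C. Before adjustment 6 of 10 had a p under 0.05, as had 48.7% of all genes, and the ranges did not overlap for 5 of 10, where 43.5% of all genes did not. In knockouts 5 of 10 passed, all higher at 22 °C, where 51.1% of all genes passed, 21.8% as higher and 29.4% as lower. Before adjustment 5 of 10 had a p under 0.05, as had 57.6% of all genes, and the ranges did not overlap for 5 of 10, where 55.8% of all genes did not. The counts of genes passing in either direction were near the shares of all genes, while none of the 5 calls in knockouts was lower. The temperature values carry the split in Xist and Ddx3y given above. Marker lists moved with temperature too. In controls 8 of 12 macrophage, 2 of 6 fibroblast and 2 of 4 lymphocyte markers passed as lower at 22 °C. There 6 of 10 brown adipocyte markers passed as higher. In knockouts 12 of 12 macrophage, 6 of 6 fibroblast and 4 of 4 lymphocyte markers passed as lower, and 7 of 10 brown adipocyte markers as higher. The part of these in the differences was not tested.

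**Figure D5:**
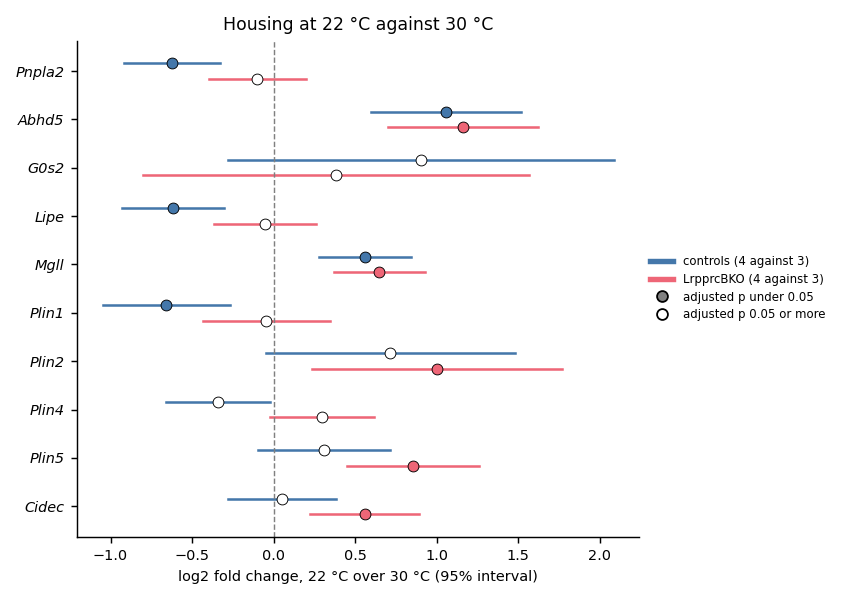
Log2 difference of 22 °C minus 30 °C for the 10 genes in controls and in knockouts, with 95% intervals from limma. Abhd5 and Mgll lie above 0 in both genotypes, and Pnpla2, Lipe and Plin1 lie below 0 in controls. Intervals of Plin4 in controls and of Cidec, Plin2 and Plin5 in knockouts also exclude 0.

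Whether the genotype difference itself depended on temperature was tested with an interaction term, the knockout difference at 22 °C minus that at 30 °C. It passed for 0 of 10 genes and for 0 of 13079 genes (0%) in limma after adjustment. With other scalings 6 to 10 of all genes passed, and none of the 10 did. Unadjusted, 5 of 10 had a p under 0.05, as had 13% of all genes. These were Plin4 (0.64, limma adjusted p = 0.245), Lipe (0.57, limma adjusted p = 0.274), Pnpla2 (0.52, limma adjusted p = 0.284), Plin1 (0.61, limma adjusted p = 0.335) and Cidec (0.51, limma adjusted p = 0.349). A temperature dependence of the Pnpla2, Plin4 or Cidec differences was therefore not shown.

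Other genes of droplets and lipolysis came from lists drawn up by function. Of 24 other lipid droplet and lipase genes tested, 0 passed as higher and 1 as lower in knockouts at 22 °C. Over all genes 0.91% passed as higher and 1.06% as lower there. The lower gene was Ces1d, a carboxylesterase with triglyceride hydrolase activity (-0.85, limma adjusted p = 0.0456). Its call was lost under quantile normalization (0.208) and with equal totals (0.0667). At 30 °C 3 of the 24 passed as higher and 5 as lower, where 8.82% of all genes passed as higher and 5.28% as lower. With FPKM as deposited the counts were 6 higher and 1 lower at 22 °C and 5 higher and 3 lower at 30 °C. On that scale 3167 of all 13079 genes passed as higher and 81 as lower at 22 °C, and 4280 and 291 at 30 °C. As scaled here, Ces1d was again lower at 30 °C (-1.34, limma adjusted p = 0.00329), as was Clstn3 (-2.21, limma adjusted p = 0.000156). An adipocyte isoform of Clstn3 limits droplet growth. Hilpda, an inhibitor of Pnpla2, was higher (0.85, limma adjusted p = 0.00969). Fabp4, a fatty acid carrier, was lower (-0.85, limma adjusted p = 0.00901), a direction that reversed under quantile normalization.

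Of 29 genes of the hormonal control of lipolysis, 0 passed limma's test between genotypes at 22 °C, with 3 at an unadjusted p under 0.05. At 30 °C 2 of the 29 passed as lower. Over all genes 1.97% passed at 22 °C and 15.8% had an unadjusted p under 0.05. At 30 °C 8.82% of all genes passed as higher and 5.28% as lower. With FPKM as deposited 3 of the 29 passed as higher and 0 as lower at 22 °C, and 5 as higher and 1 as lower at 30 °C. Of all 13079 genes that scale passed 3167 as higher and 81 as lower at 22 °C, and 4280 and 291 at 30 °C. The 2 lower genes were Adcy6, an adenylyl cyclase (-0.99, limma adjusted p = 0.00448), and Prkaca, a catalytic subunit of protein kinase A (-0.64, limma adjusted p = 0.0453), whose call was lost in the 3 other scalings. Of 10 transcription factors of adipocyte lipid genes, Ppargc1a was higher in knockouts at 22 °C (1.14, limma adjusted p = 0.0411) and Ppard at 30 °C (0.50, limma adjusted p = 0.0119). With FPKM as deposited 5 of the 10 passed as higher at 22 °C and 2 at 30 °C, where 3167 and 4280 of all 13079 genes did.

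Between temperatures, 10 of the 24 other droplet and lipase genes passed as higher and 2 as lower at 22 °C in controls. In knockouts 13 passed as higher and 4 as lower. Over all genes 18.2% passed as higher and 20.6% as lower in controls, and 21.8% and 29.4% in knockouts. The lipase gene Ddhd2 was higher at 22 °C in both, by 1.51 in controls (limma adjusted p = 0.000602) and 1.83 in knockouts (limma adjusted p = 7.46e-05). Of the 29 hormonal genes 6 passed as higher and 7 as lower in controls, and 5 and 5 in knockouts, close to or below those shares of all genes. Npr1, a receptor for natriuretic peptides, was lower at 22 °C in controls (-1.19, limma adjusted p = 0.000839), and Insr, the insulin receptor, was higher in knockouts (1.39, limma adjusted p = 0.000379). The other genotype had the same direction for each. Npr1 in knockouts spanned 13.6 to 18.5 scaled FPKM at 22 °C and 28.1 to 32.7 at 30 °C. Insr in controls spanned 11.6 to 25.3 at 22 °C and 7.11 to 9.38 at 30 °C. Ppargc1a, a coactivator of thermogenic genes, was higher at 22 °C by 1.81 in controls (limma adjusted p = 0.00073) and 2.75 in knockouts (limma adjusted p = 3.3e-05).

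Read assignment limits some of these values, since use of strand in counting is not given in the sources used here. Lipe overlaps the antisense gene 4732471J01Rik, which reached at most 6.01 FPKM in any library. Plin4 and Plin5 lie next to each other on the same strand, 1797 bases apart, and Plin4 overlaps the opposite-strand gene Hdgfl2 by 17 bases.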

How the data were processed

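RNA-seq of 14 libraries, each from a separate animal, was analysed from the deposited FPKM values, which the authors made on mm9, per the submitters' processing notes; the aligner and counter are not given in the sources used here. Of 35275 gene identifiers, 34490 matched a symbol. Genes with FPKM of at least 1 in at least 3 libraries were kept. Libraries were divided by median-ratio factors over 10049 nuclear genes (0.823 to 0.947 in controls, 1.047 to 1.197 in knockouts). log2(scaled FPKM + 1) was fitted with limma 3.58.1 in R 4.3.3 over all 4 groups with a mean-variance trend. Benjamini-Hochberg adjustment covered all 13079 genes, with a threshold of 0.05. Fold changes on this scale understate changes of low genes. FPKM are not counts, so no count model was used. For 90.2% of 40168 low values, FPKM steps gave whole reads within 0.05. The procedure was tested on simulated data. The genes named beyond the 10 were those with the smallest p-values in each list, at most 4 per comparison. The 10 genes and the lists were chosen with earlier results of these data known. Alternatives covered scaling, filter, pseudocount, model and left-out animals.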

Additional observations from a re-analysis of the deposited data

Results flagged for a closer look

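Pnpla2 in knockouts at 22 °C had a high animal, replicate 3 at 1415 scaled FPKM beside 1280 to 1303 in the other animals. Plin2 in controls at 22 °C had a low animal, replicate 4 at 245 scaled FPKM beside 369 to 385 in the other animals. Each was separated from its neighbour by more than Dixon's critical value for groups of 4; 2 of the 20 combinations of gene and group examined were separated in this way, and chance gives about 1 in 20.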

How the results depend on the processing

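Of 14 called differences of single genes, 9 were called in every alternative and 1 changed sign. The count of the 10 genes that passed between genotypes at 22 °C, 1 as reported, was 0 without a filter, 4 with FPKM as deposited, 2 with equal totals, 0 with the compared groups alone, 4 with array weights, 2 without the controls with R identifiers and 0 to 2 when an animal was left out. At 30 °C it was 3 lower as reported and 6 with array weights. It was 1 higher and 1 lower with FPKM as deposited, and 1 higher and 2 lower with quantile normalization. FPKM as deposited passed 3248 of all 13079 genes at 22 °C and 4571 at 30 °C, and quantile normalization 193 and 1770. The log2 differences that changed sign between genotypes at 22 °C were, with FPKM as deposited, Pnpla2 0.14, Mgll 0.027, Abhd5 0.052 and Plin4 0.29. With quantile normalization they were Pnpla2 0.18 and Plin4 0.16, with equal totals Plin4 0.13, with array weights Plin5 -0.13, without R identifiers Plin4 0.074 and Plin5 -0.042, and with a muscle score as covariate Plin5 -0.036. Leaving out an animal gave -0.087 to 0.122 for Plin4 and -0.15 to 0.13 for Plin5. At 30 °C FPKM as deposited gave G0s2 0.19 and Plin1 0.12, quantile normalization Pnpla2 0.028, G0s2 0.12 and Plin1 0.31, equal totals G0s2 0.048 and the muscle covariate G0s2 0.093, while leaving out an animal gave G0s2 -1.01 to 0.44. Between temperatures in controls Cidec was -0.052 with FPKM as deposited, -0.007 with quantile normalization and -0.058 to 0.167 when an animal was left out, and G0s2 was 0.00 to 1.44. In knockouts leaving out an animal gave Plin1 -0.085 to 0.004, Pnpla2 -0.208 to 0.044 and Lipe -0.102 to 0.033. For the interaction Abhd5 was -0.23 with array weights and -0.28 without R identifiers, Mgll was -0.056 without R identifiers, and leaving out an animal gave Abhd5 -0.11 to 0.24, Mgll -0.009 to 0.175, Plin2 -0.088 to 0.526 and G0s2 -1.07 to 0.38. The cause was not tested. No paired analysis was possible because the labels give no shared replicate numbers.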
